A study of Mus musculus with 2 samples.

Results

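The genes described here encode splicing factors and heterogeneous nuclear ribonucleoproteins (hnRNPs) in mouse CD4+ T cells. The rule that picked them reads gene names, and it takes every probe set of the Affymetrix Mu11k chips for which the platform annotation gives 1 gene symbol that begins with Srsf, Hnrnp, Ptbp, Snrp, Sf3, U2af or Prpf. This gave 46 of 6137 named genes and 61 of 13069 probe sets that are not controls. The chip called subA carries 49 of the sets, for 37 genes, and subB carries 12, for 11 genes. Srsf1 and Srsf6 are the 2 genes on both chips, each by different probe sets. A further 7 sets on subA and 1 on subB list a gene of these names together with other genes, and are not counted.

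Pre-mRNA splicing removes introns from new transcripts. Small nuclear ribonucleoprotein particles (snRNPs), built on a ring of Sm proteins, recognise the splice sites together with U2AF and the SF3 complexes, and PRPF proteins help to assemble and drive the catalytic spliceosome. SR proteins mostly promote the use of nearby exons, while many hnRNPs, the abundant proteins that coat nuclear RNA, repress them. In T cells these factors are known for alternative splicing on activation, of which the exons of the phosphatase CD45 are the textbook case.

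The RNA came from purified CD4+ cells of spleen and lymph node of female B10.PL mice with a T-cell receptor transgene that recognises Ac1-11, a peptide from the N terminus of myelin basic protein. The labels add a time of 48 h and the abbreviation TCL, with no age and no count of animals. The series compares stimulation with 4Y, which in this field names an analogue of that peptide with a tyrosine substitution, with stimulation by Ac1-11. For each chip there is 1 array with deposited levels and 1 baseline array that is known only through the deposited changes. The experiment in the authors' deposited table is named 4Y, but its levels also stand under the samples labelled Ac1-11, with no difference in any of the 6584 sets of subA or the 6595 of subB. Which stimulus the deposited array stands for is therefore not settled, and everything below is given as deposited over baseline array. All cells, on both sides, carry the same receptor transgene.

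With 1 array for each condition and chip there is no replicate and no test. Precision is limited by the number of arrays, and no interval can be given. A level is an average difference, the mean of perfect match minus mismatch signal over the probe pairs of a set, in arbitrary units that can fall below 0. Levels of different sets are not compared, because each set has its own probes. A probe set counted as detected when it was called present on the deposited array or its baseline was not marked absent. As RNA was pooled over all cells of a sample, fewer cells of a type and less RNA per cell cannot be told apart. T-cell markers were detected by both of the 2 sets that subA carries and all 5 that subB carries, and the CD8 marker by 0 of 1 on subB. B-cell markers were detected by 1 of 4 sets on subA and 0 of 1 on subB, macrophage or monocyte markers by 2 of 2 and 1 of 3, and antigen-presenting cell markers by 3 of 4 on each chip. Markers of NK cells were detected by 0 of 1 set on subA, and those of red cells by 1 of 2 sets on subB. Summed over the same marker sets, detected or not, T-cell levels came to 14182 on the deposited array and 10525 on the baseline array of subA, and to 101821 on the deposited array and 135744 on the baseline array of subB. Those of macrophages or monocytes came to 5927 on the deposited array and 2993 on the baseline array of subA, and to -223 on the deposited array and 1312 on the baseline array of subB. B-cell levels came to 839 on the deposited array and 2364 on the baseline array of subA, and to -475 on the deposited array and -442 on the baseline array of subB. Antigen-presenting cell levels came to 5396 on the deposited array and 5183 on the baseline array of subA, and to 8650 on the deposited array and 8244 on the baseline array of subB. Red-cell levels came to 4010 on the deposited array and 5045 on the baseline array of subB. Such sums can follow 1 set or sets that were not detected. On subA the highest B-cell level was 1478 on the deposited array and 1466 on the baseline array, and the lowest -643 and -128. The 2 macrophage or monocyte sets had 633 and 5294 on the deposited array, and 707 and 2286 on the baseline array. The sums are therefore no measure of the share of a cell type. The part of any such cells in the values below was not tested.

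Splicing genes were detected more often than the chip as a whole. On subA 41 of 49 member sets (83.7%), for 33 genes, were detected, beside 51.2% of all sets. On subB 6 of 12 (50%) were, beside 27.7%. On subA 39 of the members were present on both arrays. On subB only Hnrnph1, Snrpa and Snrpe were. Srsf1, Srsf3 and Srsf6 entered there through the deposited array alone, with the baseline marked absent. Entry of this kind favours sets with higher values on the deposited array, so the counts over members that passed on this chip are no support for a direction.

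On subA no splicing gene met the rule for a change. None of the 41 detected members had a difference call of increase or decrease in the authors' deposited table, beside 7.51% of all 3343 detected sets. None had such a call with a fold of at least 2, beside 4.46%. The deposited fold was below 1 for 25 members (61.0%), above 1 for 10 (24.4%) and 1.0 for 6, while over all detected sets 42.5% lay below and 45.0% above. The members' median log2 fold was -0.26, against 0 over all detected sets, and it was -0.14 with 1 probe set for each gene. For scale, 2 detected sets of the same gene differed with a per-set SD of 0.46 on the log2 scale over the genes of this chip with such sets.

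Members also lay closer together than the chip as a whole. Their log2 folds on subA ran between -0.85 and 0.49 with an SD of 0.33, beside an SD of 0.74 over all detected sets, a difference with no test. Members and all sets were not matched for level, and only 1 of the 41 detected members had a fold marked as approximate. Among sets present on both arrays the SDs were 0.32 for members and 0.58 for all. A fold of at least 1.5 lower was found for 5 members (12.2%), beside 15.7% of all detected sets, and none was at least 1.5-fold higher, beside 14.8%. That limit of 1.5 was set after the values were seen.

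**Figure D1:**
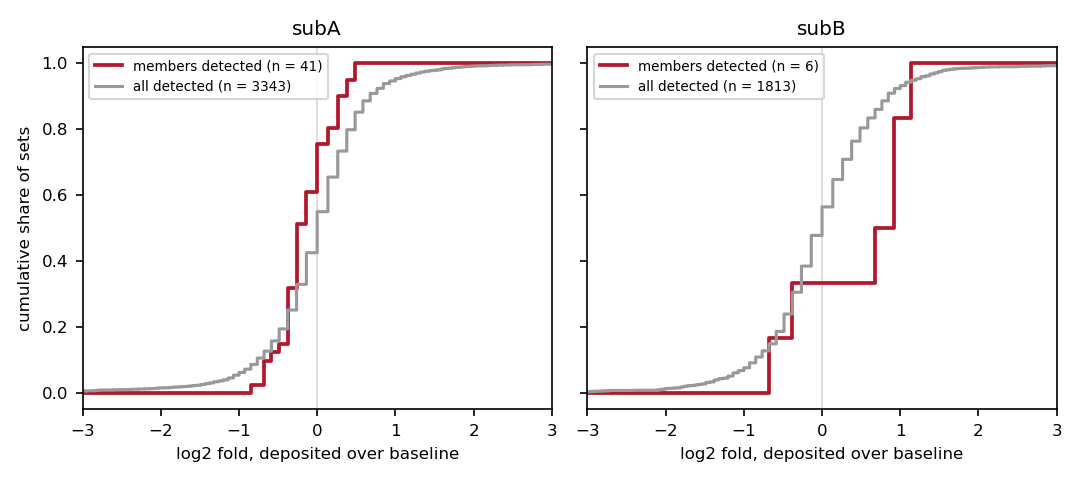
Cumulative share of probe sets (vertical axis) by log2 fold of deposited over baseline array (horizontal axis, shown between -3 and 3), for detected splicing members and for all detected sets of each chip. On subA the members' curve is steeper and lies above the other from a log2 fold of about -0.38 upward. On subB 4 of the 6 members lie above 0. Of these, Srsf1, Srsf3 and Srsf6 were detected on the deposited array alone, so the count is no support for a direction.

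Of the 19 detected hnRNP sets on subA 14 were below 1, 3 above and 2 at 1.0, with a median log2 fold of -0.26. They held 56% of the members below 1 and 46.3% of all detected members. Of the 14 sets, 3 belong to Hnrnpab and 4 to Hnrnpc, and by gene 8 of 13 had every detected set below 1. The lowest fold of any member belonged to Hnrnpll, an RNA-binding protein known for silencing CD45 exons in activated T cells. Its level was 982 on the deposited array and 1478 on the baseline array, a deposited fold of 1.8 lower, and of its 20 probe pairs 5 were scored as decreased and 0 as increased. The call was no change. The deposited fold need not equal the ratio of the levels, which was 1.51 lower here.

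Hnrnpab, a CArG-box and RNA-binding hnRNP, was represented by 4 sets, all with lower values on the deposited array. By d90151_s_at its level was 5603 on the deposited array and 8876 on the baseline array, 1.6-fold lower, with 4 pairs decreased and 1 increased. The sets aa616337_at and aa616337_g_at, which share a source sequence, had 1100 and 4126 on the deposited array, against 1530 and 4928 on the baseline array, folds of 1.4 and 1.2 lower. The last set, AA396128_s_at, was not detected, at -61 on the deposited array and 1 on the baseline array. Hnrnpc, which binds uridine tracts of nascent transcripts, was lower by each of its 4 sets. The folds ran between 1.1 and 1.3. The set C80267_rc_f_at had 5693 on the deposited array and 7538 on the baseline array, and aa674148_at had 199 on the deposited array and 268 on the baseline array. The other Hnrnpc sets, C80478_rc_f_at and aa543665_f_at, had 3971 and 1351 on the deposited array, against 4335 and 1653 on the baseline array. All Hnrnpc sets but aa674148_at end in _f_at, an ending of 7 of the 49 member sets of subA. It marks probes shared within a family of similar sequences, so signal from related genes or pseudogenes can enter. By the deposited fold every set of both genes thus ran the same way, though none had a call. Other measures were less uniform. For Hnrnpc, C80267_rc_f_at had 2 pairs increased and 1 decreased, C80478_rc_f_at and aa543665_f_at had 3 each way, and aa674148_at had 2 increased and 4 decreased. The deposited change in average log ratio was above 0 for aa543665_f_at (0.15), aa674148_at (0.27) and aa616337_at (0.49). It was below 0 for the other sets of both genes.

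Hnrnpd, also called AUF1, binds AU-rich elements and speeds mRNA decay. It had 400 on the deposited array and 634 on the baseline array, 1.6-fold lower, with 5 pairs decreased and 1 increased. Hnrnpa0 had 6991 on the deposited array and 8822 on the baseline array, 1.3-fold lower with only 1 pair scored as decreased. Hnrnpa2b1 had 1238 on the deposited array and 1471 on the baseline array, and Hnrnph2, which binds G-rich runs, had 584 on the deposited array and 679 on the baseline array, each 1.2-fold lower. All of these lay below the baseline array by small folds. The poly(C)-binding Hnrnpk was nearly level, with 6419 on the deposited array and 6824 on the baseline array. Hnrnpm and Hnrnpl, another regulator of CD45 exons, had folds of 1.0, with 6028 and 1942 on the deposited array, against 5994 and 1892 on the baseline array.

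The few hnRNP values above 1 were small. Hnrnpu, which also binds the nuclear scaffold, had 2567 on the deposited array and 2220 on the baseline array, 1.2-fold higher. Its change in average log ratio ran the other way, at -0.93. Hnrnpdl had 368 on the deposited array and 313 on the baseline array by its detected set, also 1.2-fold higher, with 6 pairs increased, although its baseline was marked absent. The second Hnrnpdl set was not detected, with 150 on the deposited array and 78 on the baseline array. Hnrnpul2 shows how far sets of the same gene can part. By aa644817_at it was 1.1-fold higher, with 1233 on the deposited array and 1129 on the baseline array, and by aa644817_g_at it was 1.3-fold lower, with 1150 on the deposited array and 1550 on the baseline array. Those sets share a source sequence.

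**Figure D2:**
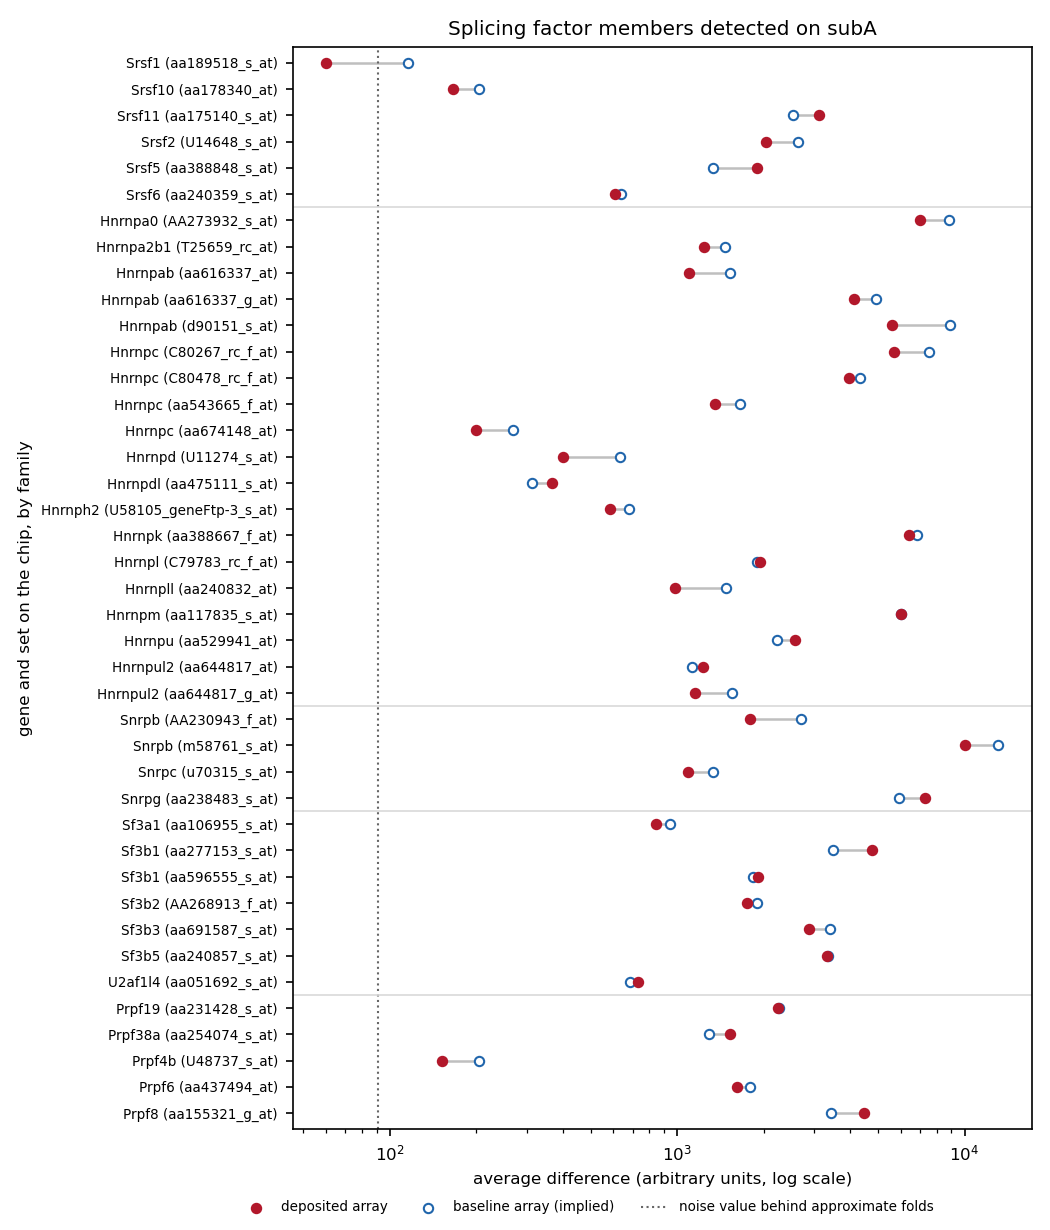
Average difference (horizontal axis, arbitrary units, log scale) of the 41 splicing members detected on subA, one row per probe set and ordered by family; filled points are the deposited array, open points the implied baseline array, and the dotted line is the noise value of 90.7. Most hnRNP rows have the filled point left of the open one by a short distance, and Hnrnpll, Hnrnpd and Hnrnpab have the longest of these gaps.

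Among the snRNP proteins on subA, Sm and U1 components were lower in 3 of 4 detected sets, without a call. Snrpb encodes the Sm proteins B and B'. Its set m58761_s_at had 10009 on the deposited array and 13118 on the baseline array, 1.3-fold lower. Its other set, AA230943_f_at, had 1790 on the deposited array and 2707 on the baseline array, 1.5-fold lower, with 6 pairs decreased, more than for any other detected member of this chip. Snrpc, a protein of the U1 particle, had 1091 on the deposited array and 1329 on the baseline array, 1.2-fold lower. Snrpg, the Sm protein G, ran the other way with 7304 on the deposited array and 5938 on the baseline array, 1.3-fold higher, with 3 pairs increased and 0 decreased. Snrpa1 was not detected, and both of its levels were below 0.

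SR protein genes on subA were split, with 2 of 6 detected sets above 1, 3 below and 1 at 1.0. Srsf5 had 1893 on the deposited array and 1334 on the baseline array, 1.4-fold higher, with 5 pairs increased and 0 decreased. Srsf11 had 3125 on the deposited array and 2528 on the baseline array, 1.2-fold higher with 1 pair scored each way. The direction was the opposite for the next member. Srsf2, also known as SC35 and used to mark nuclear speckles, had 2039 on the deposited array and 2632 on the baseline array, 1.3-fold lower. Srsf6 was level, with 607 on the deposited array and 635 on the baseline array. Srsf10, known as a splicing repressor when dephosphorylated, had 166 on the deposited array and 204 on the baseline array, 1.2-fold lower.

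Srsf1, the founding SR protein, lay close to the noise value on subA. The set aa189518_s_at had 60 on the deposited array and 116 on the baseline array, an approximate 1.6-fold lower, with an absent call on the deposited side. The second set, aa182347_at, had 72 on the deposited array and 111 on the baseline array and was not detected. A fold marked as approximate could be written as 1 plus the absolute change over a noise value. That value, 90.7 on subA, was derived here as a median over the approximate folds of at least 2. It gave all 2330 approximate folds within 0.1, which is a fit to the same folds and no measurement of noise. A value such as the approximate 2.5-fold higher given for Srsf4, whose levels were -798 on the deposited array and -930 on the baseline array, is then no ratio of levels.

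Genes of the SF3 complexes, which clamp the branch site, and of U2AF had a median log2 fold of 0 on subA and ran between -0.26 and 0.49, with 2 of 7 sets of the SF3 and U2AF family above 1, 3 below and 2 at 1.0. Sf3b1, the largest SF3b subunit, had 4783 on the deposited array and 3495 on the baseline array by aa277153_s_at, 1.4-fold higher, yet 0 pairs were scored either way. Its second set, with 1906 on the deposited array and 1842 on the baseline array, had a fold of 1.0. Sf3b3, Sf3b5 and Sf3b2 had 2868, 3331 and 1747 on the deposited array, against 3415, 3356 and 1900 on the baseline array. Sf3a1 had 847 on the deposited array and 942 on the baseline array, and U2af1l4, a relative of the small U2AF subunit, had 733 on the deposited array and 687 on the baseline array.

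PRPF genes were likewise spread around no change, with 2 of 5 detected sets above 1 and 2 below. Prpf8, the scaffold at the heart of the spliceosome, had 4455 on the deposited array and 3439 on the baseline array by aa155321_g_at, 1.3-fold higher. A set from the same source sequence, aa155321_at, was also higher, at 916 on the deposited array and 624 on the baseline array, but was not detected. Prpf19, a ubiquitin ligase of the spliceosome, had 2238 on the deposited array and 2254 on the baseline array, with 0 pairs scored either way. Prpf6, a bridging protein of the tri-snRNP, and Prpf38a had 1620 and 1525 on the deposited array, against 1793 and 1290 on the baseline array. Members of this family thus stood on either side of 1. The kinase gene Prpf4b had 152 on the deposited array and 205 on the baseline array, 1.3-fold lower. Prpf39, a partner of the U1 particle, was not detected, although 7 pairs were scored as increased and 0 as decreased, at levels of 527 on the deposited array and 279 on the baseline array. The remaining undetected member of subA was Ptbp2, with -44 on the deposited array and -61 on the baseline array.

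**Figure D3:**
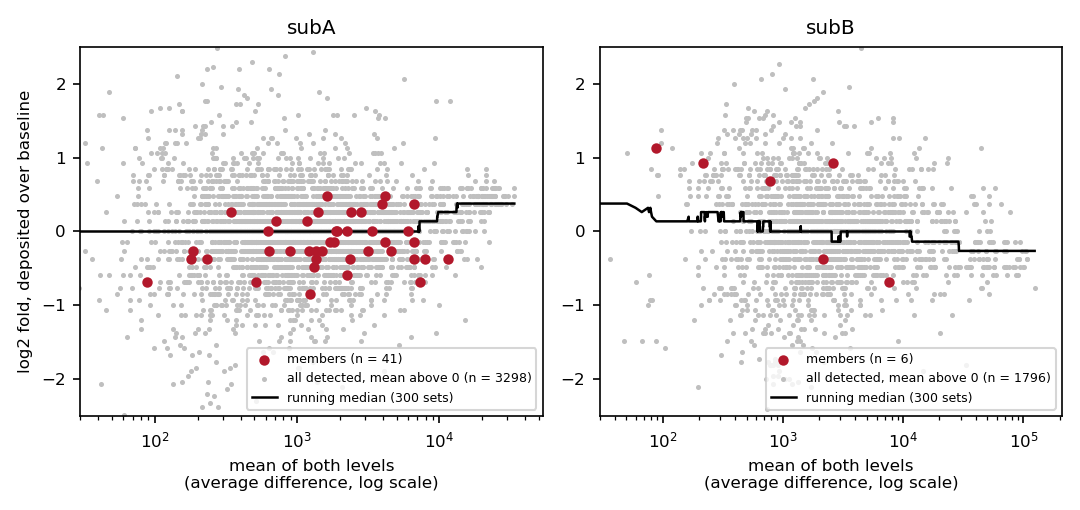
Log2 fold (vertical axis, limited to the central range) against the mean of deposited and baseline level (horizontal axis, average difference, log scale) for splicing members, other detected sets and the running median over 300 sets. On subA the running median is 0 over most levels and climbs at the highest ones, where Snrpb and Hnrnpab lie below it, and on subB Srsf1 and Srsf3 stand at the low end of levels.

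Few probe pairs of the members were scored as changed by the software. These scores come from the same arrays as the folds and calls, so they are no separate support. Over the 820 pairs of detected members on subA, 69 (8.41%) were scored as increased and 91 (11.1%) as decreased, while over all detected sets the shares were 12.4% and 12.5%. No detected member had more than 6 of its 20 pairs scored in either direction. Pairs within a set share an array and are not replicates.

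On subB, 4 of the 6 detected splicing members had a difference call in the authors' deposited table, 3 of increase and 1 of decrease. All detected sets had such calls at 8.94%, increases at 5.79% and decreases at 3.14%. With a fold of at least 2 also required, 1 member counted as changed, Srsf1, beside 6.23% of 1813 detected sets. Folds were above 1 for 4 members and below 1 for 2, beside 43.6% and 47.8%, with a median log2 fold of 0.80 against 0. That median was -0.38 over the 3 members present on both arrays. Over all 12 members, detected or not, the median was 0.26 and 7 had more pairs increased than decreased.

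The promoters of the 4 genes with a difference call are shown because these are the members whose values the deposited calls single out. The windows run from 250 bases before to 50 after the annotated start, from RefSeq on GRCm38.p6, as written on the gene's strand. Capitals mark matches, on either strand, to motifs common in promoters. The E-box was searched for as the letters CACGTG. The motif of the ETS family of factors was searched for with the letters CCGGAAG. For the TATA box, the search looked for the letters TATAAA anywhere in the window. The CCAAT box was searched by the letters of its name. None of these motifs contains another. For Snrpa, which has 2 windows, the first listed is given.
Srsf1, chr11:88047123-88047422, plus strand: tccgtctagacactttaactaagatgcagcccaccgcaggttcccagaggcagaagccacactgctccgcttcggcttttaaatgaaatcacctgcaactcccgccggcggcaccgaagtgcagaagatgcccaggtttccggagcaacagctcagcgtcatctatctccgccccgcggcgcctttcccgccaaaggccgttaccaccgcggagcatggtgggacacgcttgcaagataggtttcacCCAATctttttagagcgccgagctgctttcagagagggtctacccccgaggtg
Srsf3, chr17:29032410-29032709, plus strand: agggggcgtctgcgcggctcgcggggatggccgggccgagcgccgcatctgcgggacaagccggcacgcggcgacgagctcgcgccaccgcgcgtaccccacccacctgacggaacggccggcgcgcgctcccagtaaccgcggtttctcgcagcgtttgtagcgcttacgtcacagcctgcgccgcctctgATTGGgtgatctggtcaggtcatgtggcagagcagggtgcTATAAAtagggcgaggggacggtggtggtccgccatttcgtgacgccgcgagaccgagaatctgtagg
Snrpa, chr7:27196222-27196521, minus strand: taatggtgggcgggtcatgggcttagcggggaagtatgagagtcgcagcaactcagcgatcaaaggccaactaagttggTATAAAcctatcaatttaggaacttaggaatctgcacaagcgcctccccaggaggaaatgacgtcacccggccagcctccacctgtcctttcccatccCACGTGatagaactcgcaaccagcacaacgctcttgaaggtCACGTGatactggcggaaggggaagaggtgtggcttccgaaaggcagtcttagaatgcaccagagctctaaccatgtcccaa
Snrpe, chr1:133610231-133610530, minus strand: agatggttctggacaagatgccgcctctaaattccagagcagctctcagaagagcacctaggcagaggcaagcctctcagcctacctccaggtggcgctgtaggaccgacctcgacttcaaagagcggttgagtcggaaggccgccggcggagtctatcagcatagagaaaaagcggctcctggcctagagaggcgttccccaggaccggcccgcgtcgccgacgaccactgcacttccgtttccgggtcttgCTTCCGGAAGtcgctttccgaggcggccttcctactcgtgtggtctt

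The member of subB with the most pairs scored was Snrpa, the A protein of the U1 snRNP, which binds a stem-loop of the U1 RNA. Its level was 3555 on the deposited array and 1668 on the baseline array, with 11 of 20 pairs increased and 0 decreased. The deposited fold was 1.9 higher and the ratio of levels 2.13, so that it would count as changed by the ratio but not by the deposited fold. Snrpe, the Sm protein E, was the one decrease. It had 5973 on the deposited array and 9185 on the baseline array, 1.6-fold lower, with 7 pairs decreased and 0 increased. Both were called present on both sides, and both sets end in _f_at, which in Affymetrix naming marks probes shared within a family of similar sequences, so signal from related genes or pseudogenes can enter.

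The increase calls of Srsf1 and Srsf3 rested on levels near background. Srsf3, the smallest SR protein and an mRNA export adaptor, had 393 on the deposited array and 37 on the baseline array, with 7 pairs increased and 0 decreased, an approximate 1.9-fold higher. Srsf1 had 344 on the deposited array and -167 on the baseline array by its called set, with 7 pairs increased and 1 decreased, an approximate 2.2-fold higher. For both genes all 4 levels lay under the noise value of this chip, 414, derived in the same way as on subA. The second Srsf1 set, which shares the source sequence, had 757 on the deposited array and 427 on the baseline array, an exact 1.8-fold higher with 6 pairs increased and 2 decreased, but was called absent on both.

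Srsf6 was also higher on subB without a call, with 916 on the deposited array and 633 on the baseline array, 1.6-fold, 5 pairs increased and 1 decreased. Hnrnph1, a binder of G-rich runs, was the detected hnRNP gene of this chip. It had 1954 on the deposited array and 2361 on the baseline array, 1.3-fold lower, with 6 pairs decreased and 1 increased. The other 5 members were not detected on either side. These were Snrpb2, a protein of the U2 particle, with 343 on the deposited array and 502 on the baseline array, Snrpn, the Sm protein of neurons, with 182 on the deposited array and 269 on the baseline array, U2af2, the large U2AF subunit, with 16 on the deposited array and -12 on the baseline array, and the polypyrimidine tract binder Ptbp1, with -413 on the deposited array and -296 on the baseline array. Prpf38b had -268 on the deposited array and -402 on the baseline array. An absent call says only that the probes did not tell signal from background.

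**Figure D4:**
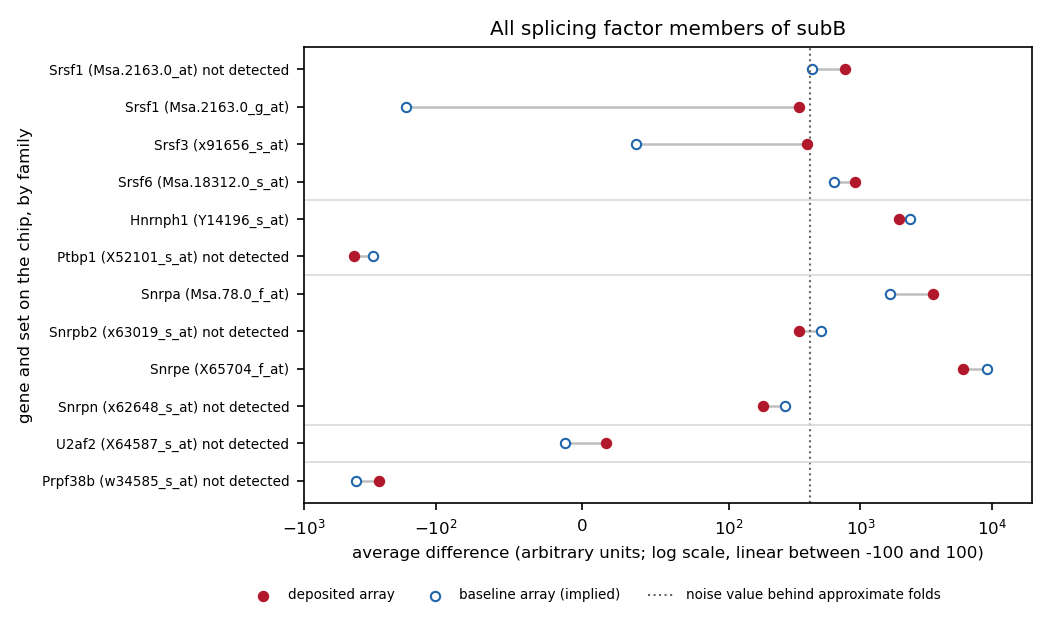
Average difference of all 12 splicing members of subB (horizontal axis, arbitrary units, log scale with a linear stretch around 0), one row per probe set; filled points are the deposited array, open points the implied baseline array, and the dotted line is the noise value of 414. Snrpa and Snrpe lie right of the line with opposite directions, and both points of Srsf3 and of the called Srsf1 set lie left of it.

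Among the 3 members of subB present on both arrays, 20% of probe pairs were scored as increased and 21.7% as decreased. With the SR protein sets, which were detected on the deposited array alone, 31 of 120 pairs (25.8%) were increased and 15 (12.5%) decreased, beside 15% and 14.1% over all detected sets. The SR protein sets held 19 of those increased pairs and 2 of the decreased ones, so the pooled shares are no support for a direction.

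**Figure D5:**
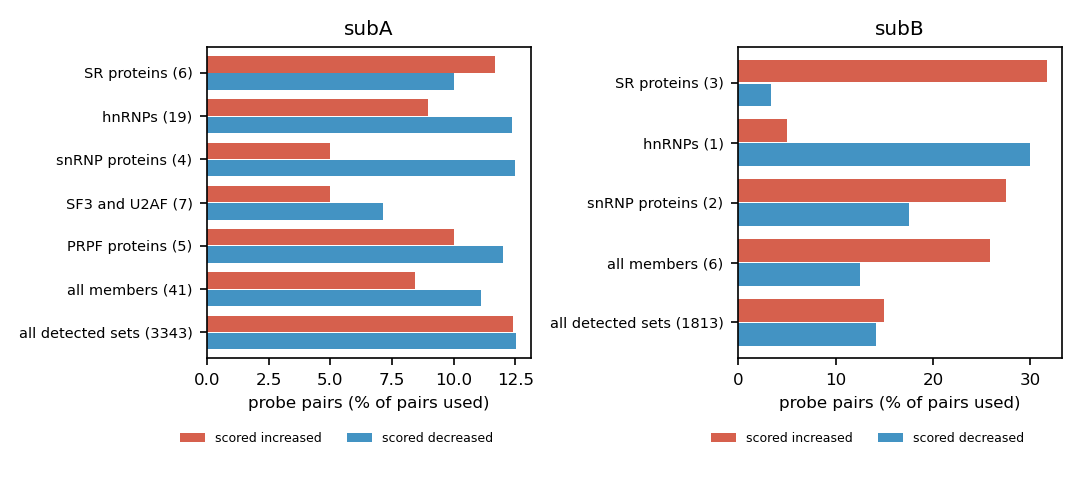
Share of pairs scored as increased or as decreased (horizontal axis, percent of pairs used) for each family of splicing genes with a detected set, for all detected members and for all detected sets of the chip, with the number of sets in brackets. On subA members have a smaller share of increased pairs, 8.41%, than all detected sets, 12.4%, and on subB the SR protein sets, detected on the deposited array alone, carry 19 of the members' 31 increased pairs.

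The 2 genes carried by both chips had different deposited folds on them, largely from levels near background. Srsf1 had approximate folds of 1.6 and 1.4 lower on subA and folds of 1.8 and an approximate 2.2 higher on subB. The sets with 1.4 and 1.8 were not detected. The set with 1.6 was called absent on the deposited array, and that with 2.2 lay under the noise value on both arrays. These Srsf1 values are no support for opposite directions. Srsf6 had 1.0 on subA and 1.6 higher on subB, where its baseline was marked absent. No probe set of a splicing member is on both chips, so these are different probes, and the difference was not tested.

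Of 74 other splicing genes listed by name, such as kinases, helicases and exon junction proteins, 39 are on subA and 10 on subB. On subA 0 of 41 detected sets met the rule for a change, which needs a call as well as a 2-fold difference, beside 4.46% of all detected sets. Elavl1 passed the fold limit without a call, an approximate 5.6-fold lower. It had -148 on the deposited array and 270 on the baseline array, with 7 pairs decreased and 1 increased. An increase call was given to 1 and a decrease call to 2, a share near the 7.51% of all detected sets with a call. These were Snw1 (2530 on the deposited array and 1602 on the baseline array, 1.6-fold higher), Lsm2 (711 on the deposited array and 1115 on the baseline array, 1.6-fold lower) and Dhx15 (2083 on the deposited array and 2867 on the baseline array, 1.4-fold lower), named because their calls were seen and not as a result about the list. Folds were above 1 for 12 sets, below 1 for 22 and 1.0 for 7, with a median log2 fold of -0.14. On subB 0 of 7 counted as changed, beside 6.23%, and 1 had a call, beside 8.94%. This was the SR-like factor Tra2b, with an increase call, named for the same reason, with 4131 on the deposited array and 2607 on the baseline array, 1.6-fold higher. The median log2 fold there was -0.26, with 3 sets above 1 and 4 below.

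Promoters of the splicing genes were compared with those of other genes as a description. A window was held for 41 of the 46 genes. The ETS motif was found in 14 of these (34.1%), in 15.5% of 4887 named chip genes with a window and in 8.86% of all 32851 windows. The CCAAT box was in 21 (51.2%), in 38.1% of chip genes and in 37.4% of all windows. The E-box and the TATA box were each in 6 (14.6%), beside 10.1% and 10.6% of chip genes and 7.15% and 13.6% of all windows. The median GC content was 59.0% for the splicing genes and 60.0% for chip genes. Among the promoters printed above, Snrpa held 2 E-boxes, 73 and 32 bases before the start, and a TATA box at 171, and Snrpe held overlapping ETS matches just after it. Srsf3 held a TATA box 18 bases and a reversed CCAAT box 58 bases before the start, and Srsf1 a CCAAT box 3 bases before it. A match is a string of letters and not evidence of binding.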

How the data were processed

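RNA of the 2 samples was read on the Affymetrix Mu11k chips, per the labels. The deposited intensity values are average differences per probe set, and the authors' deposited score columns give a signed fold and a change in average log ratio, per the file headers. Other deposited columns give presence and difference calls and probe pair numbers. Software, noise settings and scaling are not given in the sources used here. The baseline level was computed as level minus change. Noise values were derived from the folds marked as approximate. Symbols came from the platform annotation, and a comparison with RefSeq (GRCm38.p6) altered 0 of them. Members and lists were chosen with earlier results of these data known.

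The rule for a change required 3 things: a fold of 2 or more, a call of increase or decrease (not marginal) and presence on at least 1 array. The 55 controls of each chip were left out. The naming rule allowed every member, and put first those with a call, a fold of 2 or more or several sets, and up to 4 of the highest mean levels in each family. No test was made, as each condition had 1 array. Columns of other samples numbered 0. Alternatives were other thresholds, filters, centring, floors and removal of a running median. Work used Python 3.11.15, pandas 2.3.3, NumPy 2.4.6 and matplotlib 3.10.9.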

Additional observations from a re-analysis of the deposited data

How the results depend on the processing

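On subA the count of 0 changed members was the same under all 12 alternatives. No member set of this chip had a call of increase or decrease, so alternatives that kept this requirement for the same sets could only return 0. The count could differ only with the fold alone, with marginal calls counted, or with sets that list several genes added. The members' median log2 fold there, -0.26, kept its sign under all 13: it was -0.15 from level ratios with floors of 20 or 100, -0.088 with a floor of 500, and -0.14 with 1 set per gene, with the median per gene or with no detection filter. On subB the count of 1 was 4 with a fold of at least 1.5 or with the difference call alone, and 0 with a fold of at least 3, presence on both arrays or exact folds only. The subB median, 0.80, was 0 with a floor of 500, 0.64 with the running median removed, 0.15 with approximate folds or sets under the noise value left out, 0.26 with no detection filter and -0.38 over sets present on both arrays, where 1 member was above 1 and 21.7% of pairs were decreased. On subA the change in average log ratio was above 0 for 13 detected members and below 0 for 27. Its sign was opposite to that of the deposited fold for several members, among them Hnrnpu (-0.93), Srsf11 (-0.83), Hnrnpa2b1 (0.87) and Prpf4b (0.63). By the same measure, 1 detected subB member, Snrpe at -0.64, was below 0. Hnrnph1, 1.3-fold lower by the deposited fold, was above 0 by that measure, at 1.08. The log2 folds of Srsf1 and Srsf3 ran between 0 and 4.10 and between 0 and 3.41 over floors of 500 to 20, since both have low levels. That of Snrpa, 0.93, was 1.06 with the running median removed and 1.09 by level ratios at every floor, past the limit of 2-fold, so that with its increase call it would then count as changed. That of Snrpe kept its direction under all 5 alternatives. The alternatives on shared symbols, _f_at sets, the noise value and the average log ratio were chosen after seeing the data. Arrays without replicates and levels near the noise value limit all of these values.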
